A study of Homo sapiens with 6 samples.

Results

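Biglycan, hyaluronan and matricellular genes are described here as a set of 6 genes named by symbol: BGN, HAS2, TNFAIP6, VCAM1, THBS1 and CHI3L1. All 6 have a row among the 1630 genes of the deposited table. They were selected on their measured values in this same comparison, shCREPT against shControl, so their levels and differences are given as a description, with no test. RNA came from U87MG, an established human glioblastoma cell line, in 2 groups of 3 libraries. One group (shCREPT, genotype label CREPT Knockdown) carried a short hairpin RNA against CREPT, the product of RPRD1B and a protein that binds the tail of RNA polymerase II, and the other (shControl, genotype label NC) carried a control hairpin. The labels give no hairpin sequence, clone, dose or time of harvest. They do not say whether the 3 shCREPT libraries carried the same hairpin or whether the libraries of a group came from separate cultures, so every spread and p-value given here may rest on technical variation.

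The products of these genes lie at or outside the cell surface. Biglycan, from BGN, is a small leucine-rich proteoglycan that binds collagen in the matrix and, when released, can engage the innate receptors TLR2 and TLR4. HAS2 is a membrane enzyme that makes hyaluronan, the long unsulfated sugar polymer that is abundant in brain matrix, and TNFAIP6 encodes TSG-6, a secreted protein that binds hyaluronan and transfers the heavy chains of inter-alpha-inhibitor onto it. Thrombospondin-1, from THBS1, is a matricellular glycoprotein that binds CD36 and CD47 and can activate latent TGF-beta. VCAM1 is a surface adhesion molecule for leukocyte integrins, and CHI3L1 is a secreted chitin-binding protein without chitinase activity that is widely used as a marker of the mesenchymal type of glioblastoma.

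The DNA just before the start of transcription is shown for the 4 members with a searched motif before their first annotated base, to show how unlike these starts are. RefSeq (GRCh38.p14) gave a promoter for 5 of the 6 genes, and HAS2 had no entry. The search covered 250 bases before the start on both strands, and capitals mark the matches that lie before the gene's first annotated base in GENCODE v29, where each printed run ends. VCAM1 is at chr1:100719492-100719741 (+), TNFAIP6 at chr2:151357342-151357591 (+), THBS1 at chr15:39580829-39581078 (+) and BGN at chrX:153494730-153494938 (+), each written from 5′ to 3′.
VCAM1: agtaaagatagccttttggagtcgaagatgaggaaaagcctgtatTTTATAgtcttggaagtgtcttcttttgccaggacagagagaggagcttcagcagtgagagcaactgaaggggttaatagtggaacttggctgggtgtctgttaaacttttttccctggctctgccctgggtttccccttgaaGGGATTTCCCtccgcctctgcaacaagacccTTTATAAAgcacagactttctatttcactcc
TNFAIP6: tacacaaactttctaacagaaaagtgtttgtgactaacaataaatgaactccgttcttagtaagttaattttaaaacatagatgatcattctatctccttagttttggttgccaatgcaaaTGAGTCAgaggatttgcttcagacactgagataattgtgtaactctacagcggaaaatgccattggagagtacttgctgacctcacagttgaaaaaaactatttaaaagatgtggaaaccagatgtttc
THBS1: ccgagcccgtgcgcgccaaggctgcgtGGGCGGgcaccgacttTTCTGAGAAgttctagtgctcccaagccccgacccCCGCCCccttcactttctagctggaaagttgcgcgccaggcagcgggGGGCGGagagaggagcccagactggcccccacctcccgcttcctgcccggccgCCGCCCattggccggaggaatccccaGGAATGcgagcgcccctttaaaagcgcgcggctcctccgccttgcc
BGN: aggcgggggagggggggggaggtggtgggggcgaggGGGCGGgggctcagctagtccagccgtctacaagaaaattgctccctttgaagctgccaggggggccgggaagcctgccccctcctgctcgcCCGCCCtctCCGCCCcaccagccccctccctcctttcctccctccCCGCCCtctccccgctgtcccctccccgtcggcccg

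The VCAM1 run matches the NF-kappaB motif as searched here, GGGRNWYYCC, 62 to 53 bases before the start, where both strands match the same letters. Sites that depart from this pattern were not searched for. The run also holds 3 matches to TATAAA, of which a pair overlaps 31 to 24 bases before the start. The NF-kappaB motif was found before 1 of the 5 genes, against 5.21% of the 35116 promoters in the RefSeq table, 7.01% of the 884 promoters of genes the authors marked down and 6.91% of the 550 promoters of genes they marked up. TNFAIP6 has 1 match to the AP-1 motif TGANTCA, 129 to 123 bases before the start, which 6.57% of promoters hold. BGN and THBS1 have several matches to GGGCGG, a motif in 42.6% of promoters, and THBS1 has 1 match each to the STAT motif TTCNNNGAA (6.57% of promoters) and the TEAD motif GGAATG (11.9%). CHI3L1 has 1 match to TATAAA, 27 to 22 bases before the RefSeq start, inside the first exon that GENCODE v29 gives, and TATAAA is found in 10.7% of promoters. The C/EBP motif TTGCNNAA matched none of the 5 and 9.05% of all promoters. Base composition differed widely among the 5: GC content was 74.0% for BGN and 69.6% for THBS1, 54.0% for CHI3L1, 46.0% for VCAM1 and 34.4% for TNFAIP6, against a median of 58.0%. A match is a stretch of letters and says nothing about whether a factor binds there in these cells.

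Every number of expression below is a normalized signal on the authors' own scale, which the table does not name, so levels are compared between groups for a gene and never between genes. The table holds only genes that the authors marked significant, with an absolute log2 fold change of at least 1.0009, and how many reads stand behind each library is unknown. It has no row for RPRD1B, so the fall of the target was not checked here. All 6 genes were lower in each shCREPT library than in any shControl library. This separation is common in the table: in 56.6% of the 1184 tested genes, shCREPT lay lower without overlap, and 96.8% were separated in one direction or the other. A tested gene is one with a signal of at least 1 in at least 3 libraries. BGN and THBS1 met this in both groups, while HAS2, TNFAIP6, VCAM1 and CHI3L1 met it through their 3 shControl libraries alone and could enter only by being higher there.

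BGN (ENSG00000182492; chromosome X, 153494939 to 153509554, plus strand, GRCh38) had the widest separation of the 6. Its signal was 1.42, 1.56 and 1.28 in the shCREPT libraries, against 87.97, 103.55 and 115.63 in the shControl libraries. Each shCREPT library thus kept little of the signal, and any pairing of an shCREPT with an shControl library gives a level between 56.4-fold and 90.3-fold lower. The means were 1.42 ± 0.14 in shCREPT and 102 ± 13.9 in shControl (SD, n = 3 each), so that shCREPT held 1.39% of the shControl level, 72.1-fold lower. On the log2(signal + 1) scale the difference was −5.41 ± 0.12 (SE), the second in size of the 689 tested genes with a negative difference. In the authors' deposited table its log2 fold change is −6.29.

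HAS2 (ENSG00000170961; chromosome 8, 121612116 to 121641390, minus strand), the hyaluronan synthase, had signals of 0.69, 0.82 and 0.92 in shCREPT, against 12.76, 13.91 and 13.61 in shControl. Both groups were tight and far apart, with means of 0.81 ± 0.115 in shCREPT and 13.4 ± 0.597 in shControl (SD, n = 3 each), 16.6-fold lower in shCREPT. The log2(signal + 1) difference was −3.00 ± 0.09 (SE), rank 11 of the 689. HAS2-AS1, a noncoding transcript of the opposite strand that overlaps HAS2 over 2098 bases, was listed at 0, 0.67 and 0.4 in shCREPT, against 3.6, 0.79 and 1.93 in shControl. Its groups came within a small gap of each other, and it was too low to be tested. The library kit named in the labels is not stated to keep the strand, so reads of HAS2 and HAS2-AS1 cannot be told apart where they overlap.

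TNFAIP6 (ENSG00000123610; chromosome 2, 151357592 to 151380048, plus strand), whose product remodels hyaluronan, had signals of 0.44, 0.39 and 0.61 in shCREPT, against 1.84, 1.79 and 2.07 in shControl. It was the smallest of the 6 folds, 3.96-fold lower, from means of 0.48 ± 0.115 in shCREPT and 1.90 ± 0.149 in shControl (SD, n = 3 each). On the log2(signal + 1) scale the difference was −0.97 ± 0.09 (SE), rank 450 of the 689, where the added 1 is larger than the shCREPT signal itself and shrinks the difference.

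THBS1 (ENSG00000137801; chromosome 15, 39581079 to 39599466, plus strand) had signals of 25.23, 26.52 and 25.98 in shCREPT, against 165.57, 175.71 and 162.61 in shControl. Replicates differed least for this gene, with a coefficient of variation of 2.50% in shCREPT and 4.09% in shControl. The means of 25.9 ± 0.648 in shCREPT and 168 ± 6.87 in shControl (SD, n = 3 each) put shCREPT 6.48-fold lower, with a log2(signal + 1) difference of −2.65 ± 0.08 (SE), rank 16 of the 689. THBS1-IT1, an intronic transcript within THBS1 on the same strand, was listed at 0.54, 0 and 0.11 in shCREPT, against 2.53, 2.55 and 0.61 in shControl, and was too low to be tested. It lies wholly inside THBS1, so its reads cannot be told apart from those of unspliced THBS1 RNA.

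VCAM1 (ENSG00000162692; chromosome 1, 100719742 to 100739045, plus strand) was low in both groups, with signals of 0.24, 0.17 and 0.35 in shCREPT, against 1.99, 1.34 and 1.43 in shControl. The means were 0.253 ± 0.0907 in shCREPT and 1.59 ± 0.352 in shControl (SD, n = 3 each), 6.26-fold lower. Single pairings of libraries give between 3.83-fold and 11.7-fold lower. The log2(signal + 1) difference was −1.04 ± 0.12 (SE), rank 387 of the 689.

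CHI3L1 (ENSG00000133048; chromosome 1, 203178931 to 203186749, minus strand) had signals of 0.65, 0.29 and 0.24 in shCREPT, against 3.38, 1.9 and 3.69 in shControl. It varied most among replicates, with a coefficient of variation of 56.9% in shCREPT and 32.0% in shControl. The means were 0.393 ± 0.224 in shCREPT and 2.99 ± 0.957 in shControl (SD, n = 3 each), 7.60-fold lower, while single pairings span 2.92-fold to 15.4-fold lower. The log2(signal + 1) difference was −1.50 ± 0.21 (SE), rank 141 of the 689. CHI3L2, the nearest relative of CHI3L1 in its list, was listed at 0, 1.1 and 0 in shCREPT, against 0.58, 0.87 and 0.66 in shControl, so its groups overlapped.

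**Figure D1:**
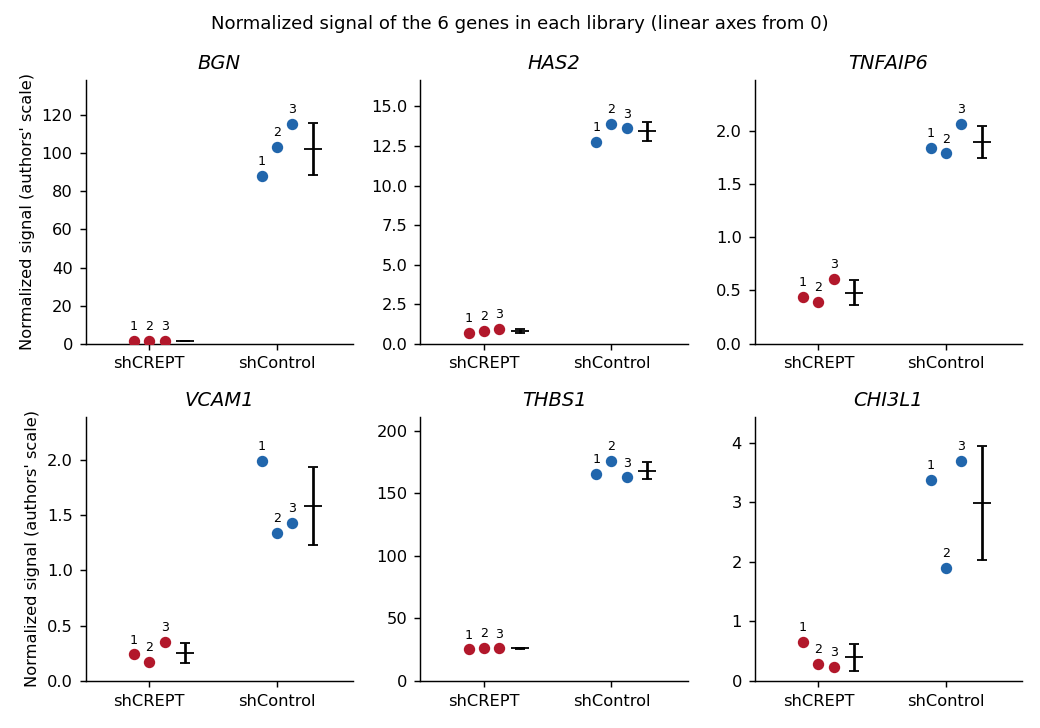
Normalized signal on the authors' scale (vertical axes, linear and starting at 0, a different range in each panel) for the 6 genes in 3 shCREPT and 3 shControl libraries; numbered points are libraries, and bars are the mean with its SD. All shCREPT points lie below all shControl points, closest together for THBS1 and most scattered for CHI3L1.

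The replicates did not order the 6 genes alike. In shControl, library 2 was the lowest for TNFAIP6, VCAM1 and CHI3L1 and the highest for HAS2 and THBS1, while BGN was lowest in library 1. In shCREPT, library 3 was the highest for HAS2, TNFAIP6 and VCAM1, library 2 for BGN and THBS1, and library 1 for CHI3L1. No library was low or high for all 6 genes in its group.

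On the log2(signal + 1) scale the 6 differences spread widely among those of the tested genes. BGN, HAS2 and THBS1 lay in the far negative tail, CHI3L1 lay below the bulk, and VCAM1 and TNFAIP6 lay within it. This order depends on the added 1, which shrinks low genes: as ratios of means, CHI3L1 and VCAM1 were 7.60-fold and 6.26-fold lower beside 6.48-fold for THBS1. By the fold change in the authors' deposited table CHI3L1, THBS1 and VCAM1 rank 128, 176 and 185 of the 973 genes marked down. Their median log2(signal + 1) difference was −2.07, beside −0.76 over all tested genes and −1.10 over the tested genes with a negative difference. Since the genes were chosen for their values in this comparison, nothing is read from that median.

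**Figure D2:**
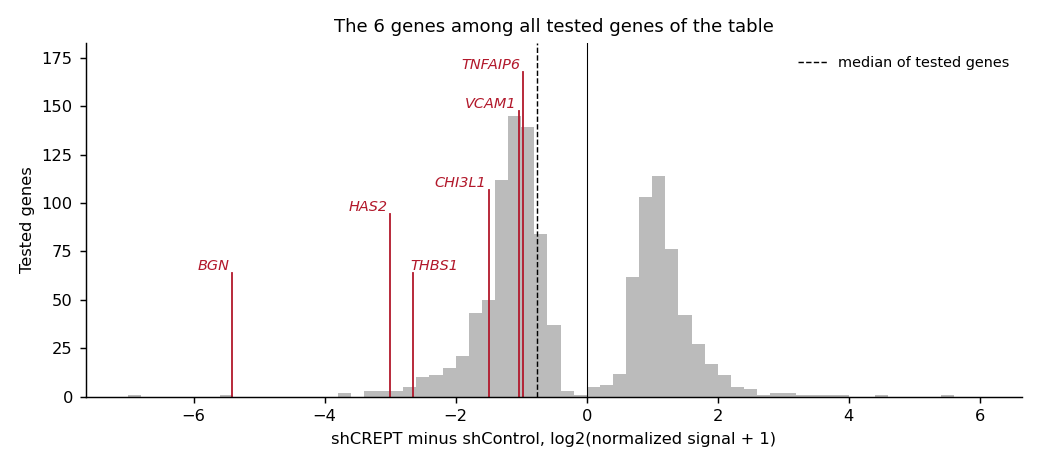
Distribution of the difference shCREPT minus shControl in log2(signal + 1) (horizontal axis) over the 1184 tested genes (vertical axis, genes per bin of width 0.2), with the 6 genes marked in red and the median of −0.76 dashed. The gap around 0 is left by the authors' selection of rows, and BGN stands at −5.41 while TNFAIP6 stands at −0.97.

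The scaling between libraries bears on every value above. A median-of-ratios rescaling over the listed genes shifts the shCREPT libraries up by 0.88 (log2) relative to shControl, which brings the median of the tested genes to −0.13. Under it the 6 genes were still lower in shCREPT, BGN 39.2-fold, HAS2 9.01-fold, CHI3L1 4.13-fold, THBS1 3.53-fold, VCAM1 3.40-fold and TNFAIP6 2.15-fold. The table is not a whole transcriptome, and the factors were computed on genes that mostly fell, so which scale is nearer to the RNA content of the cells was not tested. The mitochondrial ribosomal RNA MT-RNR1 moved with the groups, at 6466 ± 498 in shCREPT and 3200 ± 258 in shControl (SD, n = 3 each), and its part in the scale was not tested.

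**Figure D3:**
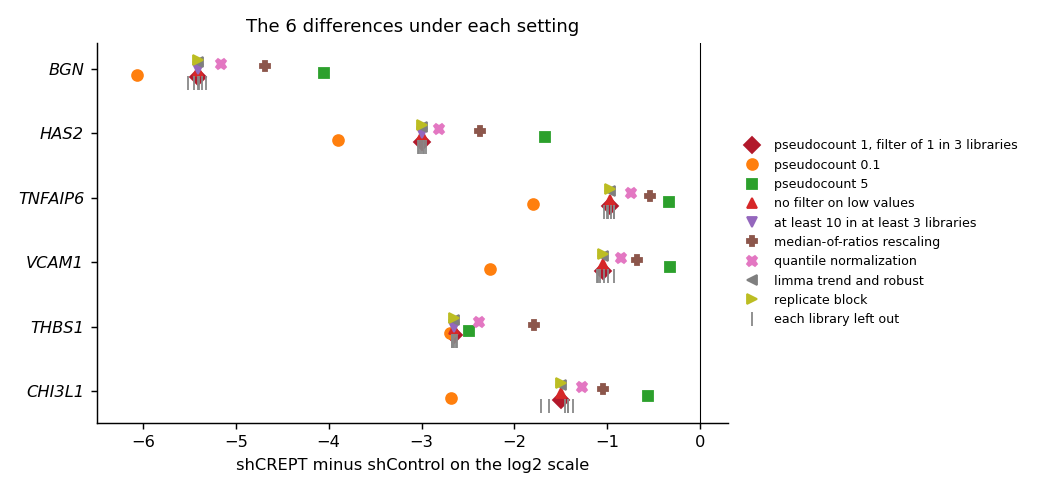
Difference shCREPT minus shControl on the log2 scale (horizontal axis) for each of the 6 genes under each pseudocount, filter, scaling and model, with grey ticks for each library left out in turn. All points lie left of 0, and BGN ranges from −6.07 to −4.06.

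The genes around each member in its pathway were taken from 10 lists. Beside the 6 members the lists hold 217 genes, of which 30 have a row and 187 do not. A gene without a row either missed the authors' threshold or was not listed for another reason, so nothing is read from its absence. Of the 30, 21 could be tested, and 15 passed as lower and 6 as higher in shCREPT (limma, Benjamini-Hochberg adjusted p under 0.05). The median log2(signal + 1) difference of the 21 was −1.0, beside −0.76 over all tested genes. Nothing is read from that median. The lists were chosen with earlier results of these data known, and 4 of the 21, named below, could be called only as lower. Of all tested genes, 57.3% were called lower and 40.6% higher, and 97.9% were called at all, since the rows had been selected for this difference. Of the 15, CSGALNACT1, SPARCL1, CCN4 and SERPINA3 lay under 1 in every shCREPT library, so these 4 passed the filter through shControl alone and could be called only as lower. Their values are given below without a p. Of all calls, 481 were higher and 678 lower (58.5% lower), and under the rescaling 492 were higher and 377 lower (43.4% lower).

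The proteoglycan genes gave few rows. Of 18 small leucine-rich proteoglycans, BGN and PODNL1 have a row. PODNL1, a podocan-like family member, had 0.62, 0.81 and 1.88 in shCREPT, against 2.35, 2.53 and 4.17 in shControl, and fell (log2(signal + 1) difference −0.95 ± 0.26 (SE), limma adjusted p = 0.0105), a call lost under the rescaling. Of 30 genes that assemble glycosaminoglycan chains, both of the kind biglycan carries and of other kinds, CSGALNACT1 alone could be tested. This enzyme starts chondroitin sulfate chains, and it had 0.82, 0.56 and 0.52 in shCREPT, against 2.21, 2.28 and 2.27 in shControl. XYLT1, which attaches the first sugar of the chain, was near 0 in all libraries, with 0.09, 0.06 and 0.07 in shCREPT, against 0, 0 and 0.01 in shControl, and EXTL1 had at most 0.01 in shCREPT and at most 0.49 in shControl. None of the 12 biglycan receptor genes, TLR2 and TLR4 among them, has a row.

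Of 33 genes for hyaluronan synthesis, turnover and binding, 4 have a row: HAS2, HAS2-AS1, TNFAIP6 and VCAN. VCAN encodes versican, a large proteoglycan that binds hyaluronan, and had 120.07, 125.69 and 137.71 in shCREPT, against 236.14, 267.68 and 255.49 in shControl. Its groups were well apart and it fell 1.98-fold (log2(signal + 1) difference −0.98 ± 0.09 (SE), limma adjusted p = 6.94e-05), but under the rescaling the difference was −0.11 and the call was lost. The other synthases HAS1 and HAS3, the hyaluronidases, and the receptor CD44 have no row.

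The matricellular list divided. Of 26 genes, 8 have a row and 6 could be tested. Beside THBS1, the related THBS3 fell, while CCN3, of the CCN family, and TNXB, which encodes tenascin-X, rose. The SPARC relative SPARCL1 and the CCN family member CCN4 are 2 of the 4 genes that passed the filter through shControl alone. THBS3 had 9.32, 9.87 and 10.62 in shCREPT, against 32.63, 28.75 and 29.42 in shControl, and fell 3.05-fold (limma adjusted p = 1.37e-05). SPARCL1 had 0, 0.09 and 0.07 in shCREPT, against 1.42, 1.14 and 1.4 in shControl. CCN3 went the other way, with 72.59, 74.74 and 69.59 in shCREPT, against 23.32, 24.11 and 26.27 in shControl, 2.94-fold higher, a log2(signal + 1) difference of 1.52 (limma adjusted p = 1.11e-05). CCN4 had 0.15, 0.35 and 0.27 in shCREPT, against 1.18 to 1.31 in shControl, and TNXB had 2.98, 3.52 and 2.23 in shCREPT, against 0.95, 1.16 and 1.17 in shControl. The groups did not overlap in any of these tested genes. Of those too low to test, TNN had at most 0.03 in shCREPT and at least 0.21 in shControl, and the groups of FBLN5 overlapped.

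Receptors that bind thrombospondin-1 moved both ways. Of 14 such genes, 5 have a row, and of the 4 tested LRP1 and VLDLR fell and SDC4 and LRP8 rose. LRP1, an endocytic receptor that clears thrombospondin, had 2.72, 2.04 and 2.54 in shCREPT, against 17.15, 16.51 and 17.17 in shControl. Its level was 6.96-fold lower in shCREPT, beside 6.48-fold lower for THBS1 (log2(signal + 1) difference −2.39 ± 0.10 (SE), limma adjusted p = 5.39e-06). SDC4, a heparan sulfate proteoglycan, had 220.35, 225.68 and 241.71 in shCREPT, against 82.16, 80.47 and 71.94 in shControl, 2.93-fold higher. LRP8 rose 2.39-fold and VLDLR, a receptor of the same family, fell 2.15-fold, a call lost under the rescaling. CD36 was too low to test, and its groups overlapped.

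For VCAM1, the list of 28 partners and other leukocyte adhesion molecules gave 4 rows. ITGA9, the alpha chain of an integrin that binds VCAM1, had 0.25, 0.05 and 0.09 in shCREPT, against 0.67, 0.54 and 0.81 in shControl, and ITGB2, the beta chain of leukocyte integrins, had 0.48, 0.42 and 0.33 in shCREPT, against 0.92, 0.76 and 0.66 in shControl. Both were too low to be tested. CADM1, a homophilic adhesion molecule, had 18.08, 19.94 and 18.94 in shCREPT, against 51.39, 50.26 and 44.11 in shControl, and fell 2.56-fold (limma adjusted p = 2.27e-05). ICAM1 and the integrin chain ITGA4 have no row.

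VCAM1 and TNFAIP6 stand in the list of 30 NF-kappaB-induced genes, and 3 other genes of that list have a row. The chemokine CXCL8 rose, with 10.3, 11.44 and 9.84 in shCREPT, against 5.16, 4.67 and 5.39 in shControl (limma adjusted p = 9.09e-05). CXCL10 and PTGS2, the inducible cyclooxygenase, fell 2.12-fold and 2.05-fold, and both calls were lost under the rescaling. The other 25 genes of the list have no row, and whether NF-kappaB had a part was not tested.

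CHI3L1 and THBS1 also stand in a list of 31 genes of the mesenchymal type of glioblastoma, where 5 other genes have a row. SERPINA3, a protease inhibitor, had 0.59, 0.9 and 0.64 in shCREPT, against 8.63, 7.56 and 7.29 in shControl, with no overlap of the groups. The collagen crosslinker LOX fell 5.26-fold, COL1A2 2.34-fold and the transcription factor SNAI2 2.17-fold, the last with a call lost under the rescaling. IL4R, a cytokine receptor chain, rose 2.54-fold, with 20.37, 16.6 and 20.16 in shCREPT, against 7.27, 7.79 and 7.47 in shControl. CD44, VIM and FN1 have no row.

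**Figure D4:**
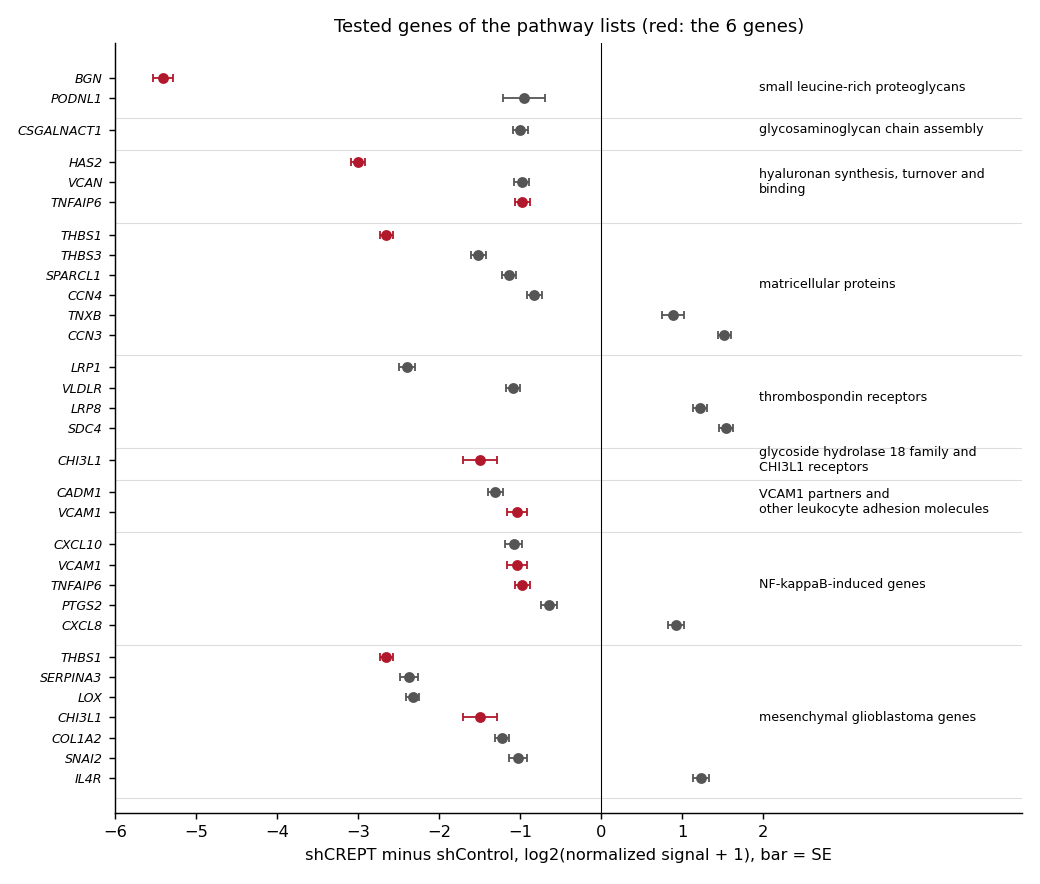
Difference shCREPT minus shControl in log2(signal + 1) with its SE (horizontal axis) for the tested genes of the pathway lists, with the 6 members in red and a gene repeated where it stands in several lists. Matricellular proteins and thrombospondin receptors hold differences on both sides of 0, such as THBS1 at −2.65 and CCN3 at 1.52.

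Markers of other cell types were also looked up. The labels name only U87MG cells, a cell line, so a marker with a row is read as RNA of that culture. It is not read as a share of another cell type. None of 15 microglia, macrophage and monocyte markers has a row. Of 10 endothelial markers, the type in which VCAM1 is best known, CDH5 and KDR have a row. CDH5 had 6.72 to 7.83 in shCREPT and 32.75 to 33.94 in shControl. KDR had 4.92 to 5.83 in shCREPT and 10.53 to 11.52 in shControl. Of 10 fibroblast and pericyte markers, cells rich in biglycan, COL1A2, COL3A1 and PDGFRA have a row. COL1A2 had 431.57 to 492.37 in shCREPT and 1084.21 to 1099.05 in shControl. PDGFRA had 8.83 to 10.46 in shCREPT and 50.54 to 56.6 in shControl. COL3A1 did not exceed 0.39 in any library. Of 11 T cell markers, CD247 alone has a row, at 2.73 to 4.54 in shCREPT and 0.75 to 1.69 in shControl. Of 10 astrocyte and glioma markers, GFAP, S100B and SLC1A3 have a row. GFAP had 43.12 to 49.81 in shCREPT and 421.04 to 447.81 in shControl, so this glial filament gene of the labelled cell type was present. SLC1A3 had 29.35 to 45.34 in shCREPT and 74.16 to 82.59 in shControl. S100B had at most 0.21 in shCREPT and 2.27 to 3.12 in shControl. The part of any of these in the results for the 6 genes was not tested.

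Genes with the profile most like each member were found by the Euclidean distance between log2(signal + 1) profiles over the 6 libraries, each centred on its own mean. HAS2 was nearest to COL14A1, a collagen of fibril surfaces (distance 0.223), and to the small heat shock protein CRYAB (0.275), and THBS1 was nearest to COL14A1 (0.242) and LTF, lactotransferrin (0.273). LTF had 0.04, 0.2 and 0.14 in shCREPT, against 5.06, 5.88 and 4.72 in shControl, which is 41.2-fold lower, so its likeness to THBS1 holds on the log2(signal + 1) scale and not as a ratio. COL14A1 had 4.47, 4.98 and 4.72 in shCREPT, against 39.01, 41.17 and 39.74 in shControl, 8.46-fold lower. BGN had no close match: GPM6B and SLC38A3 came first at distances of 2.04 and 2.19. TNFAIP6 was nearest to PPP1R3B (0.094) and KITLG, the ligand of the receptor KIT (0.111), VCAM1 to IMMP2L (0.173) and TENT5B (0.18), and CHI3L1 to PPFIA4 (0.454) and SELENBP1 (0.486). These matches do not hold as ratios either. TNFAIP6 was 3.96-fold lower, against 2.43-fold for PPP1R3B and 2.42-fold for KITLG. VCAM1 was 6.26-fold lower, against 2.34-fold for IMMP2L and 2.43-fold for TENT5B. CHI3L1 was 7.60-fold lower, against 2.97-fold for PPFIA4 and 3.55-fold for SELENBP1. For these members the added 1 is larger than the shCREPT signal and shrinks the difference. Among the members themselves, on the same log2(signal + 1) scale, TNFAIP6 and VCAM1 were the nearest pair (0.32), followed by HAS2 and THBS1 (0.444). These distances rest mostly on the difference between the groups, for which all rows had been selected.

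In the genome the 6 genes lie on 5 chromosomes, with VCAM1 and CHI3L1 far apart on chromosome 1. Within 500000 bases of BGN, GENCODE v29 has 29 protein-coding genes, and 5 of them, PNCK, SLC6A8, PLXNB3, SRPK3 and ARHGAP4, have a row and were called lower, against the 57.3% of tested genes called lower in the table. PNCK was under 1 in every shCREPT library and could be called only as lower. PLXNB3, a plexin receptor, had 51.09, 48.09 and 52.29 in shCREPT, against 140.47, 122.17 and 137.45 in shControl (limma adjusted p = 1.66e-05), and the creatine transporter SLC6A8 had 40.03, 33.98 and 50.15 in shCREPT, against 98.34, 72.13 and 84.1 in shControl (limma adjusted p = 0.00117). The 5 neighbours had log2(signal + 1) differences of −1.02 to −1.38, smaller in size than that of BGN. The rescaling above shifts shCREPT up by 0.88 (log2), which is near these differences in size. The calls of the neighbours under it are not given here. The 1 neighbour of CHI3L1 with a row is PPFIA4, 100191 bases away. It is also the gene with the nearest log2(signal + 1) profile to CHI3L1. It had 2.45, 1.75 and 1.54 in shCREPT, against 6.81, 3.37 and 6.85 in shControl (limma adjusted p = 0.00377), and like CHI3L1 it was lowest in shControl library 2 and highest among shCREPT libraries in library 1. This shared order comes from the same values as the profile distance and is not separate from it. TNFAIP6 and VCAM1 have no neighbour with a row in that window. The other neighbours with a row, PWWP4 near BGN and LINC02915 near THBS1, did not exceed a signal of 0.42 in any library.

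**Figure D5:**
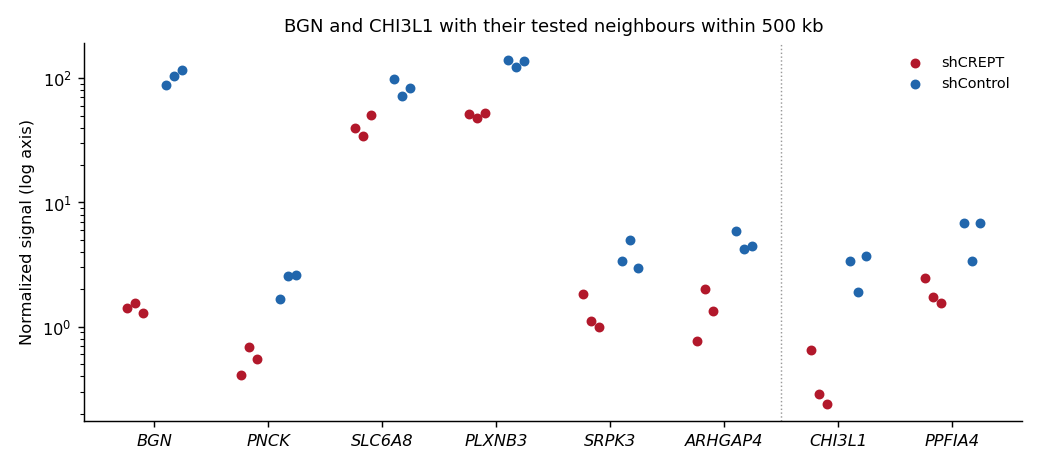
Normalized signal (vertical axis, log scale) of BGN and CHI3L1 and of their tested neighbours within 500000 bases in 3 shCREPT and 3 shControl libraries; each point is a library, in the order 1 to 3 within a group. PPFIA4 and CHI3L1 share a low second shControl library, at 3.37 and 1.9.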

How the data were processed

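RNA of 6 U87MG libraries was sequenced, and the files hold 1 table of 1630 genes. Its library values are signal values normalized by the authors by a method not given in the sources used here, per the file headers, with depth unknown; HISAT2, HTSeq and GRCh38 are named in the submitters' processing notes with no version. Other columns hold the authors' own comparison: the ratio of shCREPT to shControl, the log2 of that ratio, and raw and adjusted p-values, all deposited by the authors. Every row is marked significant. The largest adjusted p-value is 0.0497.

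Values were transformed as log2(signal + 1), a gene was tested if 3 or more libraries reached 1 (1184 genes, with 446 below that), and all 6 libraries were fitted with limma 3.58.1 in R 4.3.3, with no covariate, two-sided, with Benjamini-Hochberg adjustment over all tested genes and a threshold of 0.05. The limma step was tested on simulated data. The members and lists were chosen with earlier results of these data known. Named were the members, every list gene with a row, the 2 nearest profiles per member and every listed neighbour within 500000 bases; genes without a row were picked as examples, and MT-RNR1, which moved with the groups, was named outside that rule. Positions came from GENCODE v29, where all 6 members matched, and promoters from RefSeq. No library was a copy of another: each pair disagreed in 96.0% of genes or more. Alternatives were another pseudocount (0.1 or 5), filter or scaling, limma's trend and robust options, a replicate block and each library left out. Other steps used Python 3.11.15 with pandas 2.3.3.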

Additional observations from a re-analysis of the deposited data

How the results depend on the processing

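All 81 values of the 6 members under the 14 alternatives kept their negative sign, and 59 of them moved by less than 1 SD. Most of these could not have done otherwise. The filters, the trend and robust options and the replicate block leave the differences unchanged by construction. As the groups do not overlap, no pseudocount or left-out library can change a sign, so only the scalings could. Under another pseudocount or scaling, only THBS1 (pseudocount 0.1) and CHI3L1 (quantile normalization) moved by less than 1 SD. The pseudocount moved 5 of the 6 members widely. With 0.1 and 5 the log2 difference was −6.07 and −4.06 for BGN and −3.90 and −1.66 for HAS2. It was −1.80 and −0.33 for TNFAIP6, −2.27 and −0.33 for VCAM1 and −2.68 and −0.56 for CHI3L1. For THBS1 it was −2.69 and −2.48. Over all alternatives THBS1 ranged from −2.69 to −1.79, the latter under median-of-ratios rescaling. A minimum of 10 in 3 libraries left out TNFAIP6, VCAM1 and CHI3L1 by construction, so 3 members were lower, 485 genes were called over the table and 13 among the listed pathway genes. Under median-of-ratios rescaling 869 genes were called, against 1159, and 9 of the pathway genes were called lower, against 15. All 15 kept a negative difference, and PODNL1, VCAN, VLDLR, CXCL10, PTGS2 and SNAI2 lost their calls. The rescaling shifts shCREPT up by 0.88 (log2). These genes had differences of −1.08 to −0.64 before it and −0.40 to −0.10 under it. Which scale is nearer to the RNA content of the cells was not tested. With each library left out in turn there were 1137 to 1152 calls, 21 calls among the pathway genes and 6 members lower. Libraries with the same number showed no shared deviation from their group means (r = −0.109, 0.018 and −0.179 for numbers 1, 2 and 3), so the numbers were not taken to pair them; with the replicate block 1156 genes were called, 21 pathway genes were called and 6 members were lower. Depth is unknown, so the counting error behind the low signals of VCAM1, TNFAIP6 and CHI3L1 could not be given, and a test on counts was not run because the table holds no counts.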
